A study of Homo sapiens with 4 samples.

Results

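The genes described here encode enzymes that place or remove methyl groups on histone lysines, with some of their relatives and partner subunits. Subunits of the 2 Polycomb complexes and partners of these are included. The list holds 59 genes, and a peak was counted for a gene when the deposited annotation gave that gene as its nearest and did not place the peak in distal intergenic sequence. By this rule 244 peaks belonged to 47 of the 59 genes, out of 19703 peaks that were not distal intergenic, 9020 genes with such a peak and 25514 peaks in all. The rule itself uses no measured value, but the list was drawn up with earlier results of these data known. Each gene was placed with the histone residue it is best known to serve, which gave 6 residues and 2 genes (SETD3 and SETD5) without a settled one.

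The study profiled H4K20me1, histone H4 monomethylated at lysine 20, by CUT&Tag, in which an antibody guides a transposase to marked chromatin and the released fragments are sequenced. The cells were Kasumi-1, an established acute myeloid leukemia line with the t(8;21) translocation. The 2 groups were Kasumi-1 with a non-targeting guide (sgNT, genotype WT, 2 libraries) and Kasumi-1 with SETD8 knocked out by CRISPR/Cas9 (sgSETD8, 2 libraries). SETD8, now KMT5A, is the enzyme that makes H4K20me1. All libraries came from this line and from 100000 cells each. The labels do not say whether the knockout was a clone or a pool, how completely the enzyme was lost, or whether the 2 libraries of each group were grown apart, so the authors' p-values may rest on technical spread.

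The table gives 1 value per group and peak, so the results have no replicate error and no test was made here. Whether a column joins both libraries of its group or holds 1 of them is not stated. The columns of the table carry no group names. They are called first-listed and second-listed, and "higher" and "lower" mean the first-listed against the second-listed column. By the name of the comparison, in which treated stands ahead of control, the knockout would be the first-listed, but no header states it and no direction is drawn from it. Each value was turned back into whole reads, and a log2 ratio is the log2 of first-listed over second-listed reads on the authors' scale. Intervals are exact 95% Clopper-Pearson intervals that cover counting error only. The depth of each library is unknown, but 2791207 (first-listed) and 2682916 (second-listed) reads lay in peaks. Reference DNA for absolute scaling was not used here, so a change of equal size over the whole genome would not show.

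Methyl groups on histone lysines are placed by writers, removed by erasers and read by other proteins, and their effect depends on the residue. Methylation of H3K4 marks promoters and enhancers, H3K36 and H3K79 methylation lie over transcribed genes, and H3K9 methylation marks heterochromatin. Polycomb repressive complex PRC2 methylates H3K27 and PRC1 ubiquitinates H2AK119, and both keep developmental genes silent. In myeloid leukemia several of these genes, among them KMT2A, EZH2, KDM6A and ASXL1, are known sites of mutation or rearrangement. H4K20me1 itself is found over the bodies of many transcribed genes and rises and falls with the cell cycle.

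Promoter sequence was at hand for 53 of the 59 genes, as the 250 bases before a transcription start in RefSeq on GRCh38.p14. A peak covered this window, at least in part, in 16 of them. The 5 shown are those of the 16 whose covering peak has an interval of counting error that leaves out 0. The authors' deposited table gave these 5 peaks unadjusted p-values from 0.0734 (JMJD1C) to 0.384 (JARID2). If both ends of each fragment had been counted, the JARID2 interval would be −0.09 to 0.73. Larger promoter differences outside these windows, such as 1.30 at an inner SMYD3 start, are described further on. Capitals mark GGGCGG (the GC box), CCAAT and TATAAA, searched on both strands, so that a motif can also stand as its reverse complement.
JARID2 lies on the plus strand (chr6:15245819-15246068), JMJD1C on the minus strand (chr10:63269244-63269493), KDM4A on the plus strand (chr1:43649899-43650148), SUV39H2 on the plus strand (chr10:14878616-14878865) and SETD3 on the minus strand (chr14:99480860-99481109). Each is written 5′ to 3′.
JARID2 promoter: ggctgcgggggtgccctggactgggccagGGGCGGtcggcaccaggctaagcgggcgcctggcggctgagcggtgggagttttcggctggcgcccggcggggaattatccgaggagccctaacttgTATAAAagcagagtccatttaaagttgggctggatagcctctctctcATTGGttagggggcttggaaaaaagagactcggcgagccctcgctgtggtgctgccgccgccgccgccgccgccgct
JMJD1C promoter: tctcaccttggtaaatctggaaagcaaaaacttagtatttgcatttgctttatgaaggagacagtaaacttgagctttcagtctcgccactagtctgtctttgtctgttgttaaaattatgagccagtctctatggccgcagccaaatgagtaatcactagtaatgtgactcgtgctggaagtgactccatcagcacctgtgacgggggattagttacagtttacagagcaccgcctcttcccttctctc
KDM4A promoter: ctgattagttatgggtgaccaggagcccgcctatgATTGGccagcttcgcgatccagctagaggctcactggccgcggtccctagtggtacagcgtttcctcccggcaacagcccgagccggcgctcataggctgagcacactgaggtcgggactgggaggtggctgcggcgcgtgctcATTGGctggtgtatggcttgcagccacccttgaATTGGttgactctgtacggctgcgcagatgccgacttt
SUV39H2 promoter: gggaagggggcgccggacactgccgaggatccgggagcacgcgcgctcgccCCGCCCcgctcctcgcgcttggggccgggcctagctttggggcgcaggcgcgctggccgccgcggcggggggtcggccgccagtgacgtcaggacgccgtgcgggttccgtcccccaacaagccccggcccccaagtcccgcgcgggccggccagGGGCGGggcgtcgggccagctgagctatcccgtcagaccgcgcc
SETD3 promoter: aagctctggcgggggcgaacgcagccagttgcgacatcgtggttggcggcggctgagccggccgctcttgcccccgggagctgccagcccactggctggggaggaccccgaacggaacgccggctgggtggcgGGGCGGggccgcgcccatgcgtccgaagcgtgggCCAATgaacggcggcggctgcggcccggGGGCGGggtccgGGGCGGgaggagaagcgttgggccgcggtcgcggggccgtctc
At JARID2 the peak over the promoter held 228 reads in the first-listed column against 190 in the other, a log2 ratio of 0.32 (0.04 to 0.61). In the same order it held 391 and 263 reads at JMJD1C, 0.63 (0.40 to 0.86), and 267 and 179 at KDM4A, 0.63 (0.36 to 0.92). At SUV39H2 it held 187 and 129 reads, 0.59 (0.26 to 0.93). SETD3 went the other way, with 393 and 544 reads and −0.41 (−0.60 to −0.22). So 4 of the 5, picked by their intervals, were higher and 1 was lower. Over all 16 covered promoters 11 were above 0 and 5 below, with 0.11 as the median. Among all 8739 promoter peaks (within 3 kb of a transcript start) 61.2% were above 0, with a median of 0.09.

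The 5 sequences differ widely in composition. The JMJD1C window is at an inner start of the gene, has 5 CpG dinucleotides and 44% G and C, and holds none of the 3 motifs. The SETD3 window is also at an inner start, under a peak centred 6.3 kb from the RefSeq start. Among the covered windows not shown, those of KDM3A and KDM4C are inner too (5.3 and 37.4 kb). SUV39H2 has 38 CpG dinucleotides, 79.6% G and C and 2 GC boxes, and SETD3, which differed in the other direction, has 35, 77.2% and 3. JARID2 holds a GC box, a CCAAT and the TATAAA motif, and KDM4A holds CCAAT without a GC box. The GC box was in 68.8% of the 16 covered promoters, in 81.1% of the 37 promoters of these genes with no covering peak, and in 53.7% of 22199 promoters of protein-coding genes. CCAAT was in 50% of the covered, 27% of the uncovered and 32.7% of all protein-coding promoters. A motif match is a description of the letters only.

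A peak was found at 79.7% of the 59 genes (47, 95% interval over genes 67.2 to 89%), against 37.7% of the 20056 protein-coding genes of RefSeq. The 12 genes with no peak were ASH2L, BMI1, CBX7, EHMT2, KDM7A, MEN1, NSD1, RING1, SETD1A, SETDB1, SETDB2 and SUV39H1. Gene length differed along with this: the genes with a peak had a median length of 81 kb (2.65 to 758 kb) and those without one 24.4 kb (4.22 to 168 kb). The part of length in this count was not tested. Among the missing genes were BMI1 and RING1, core subunits of PRC1, and MEN1 and ASH2L, subunits of the KMT2 complexes. The peaks of the other 47 genes were mostly intronic, with 148 of 244 in introns, 81 in promoters (within 3 kb of a transcript start), 8 in exons and 7 in untranslated regions. Promoters made up 33.2% of these peaks and 44.4% of all peaks that were not distal intergenic.

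The peaks of these genes were deeper than most and more often higher in the first-listed group. They held 149 (first-listed) and 134 (second-listed) reads in the median, where all 19703 peaks held 84 and 82. Their log2 fold changes had a median of 0.22 (quartiles 0.02 and 0.45), against 0.09 (−0.15 and 0.35) for all 19703. Of the 244 peaks, 187 were above 0 (76.6%), 55 below and 2 at 0, while 60.9% of all 19703 were above 0. Depth moved with the fold change: over 4 classes of rising mean log2 signal (4 to 6, 6 to 7, 7 to 8 and 8 to 10) the medians were 0.03, 0.10, 0.16 and 0.18 for all peaks and 0.18, 0.17, 0.30 and 0.26 for those of the listed genes. Likewise, in peaks that reached the table's median signal, the medians were 0.22 for these genes and 0.14 for all, with 79.5% and 64.7% above 0. With both columns scaled to equal reads in peaks, every log2 value shifts by −0.11, and the medians become 0.11 for these genes and −0.02 for all, with 63.5% and 47.9% above 0. The count above 0 thus depends on the scaling, while the distance between both medians does not, since every value shifts alike.

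**Figure D1:**
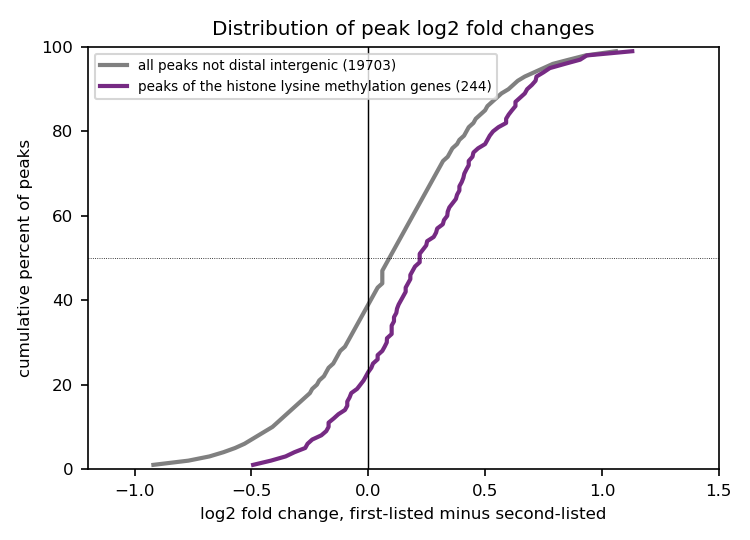
Cumulative percent of peaks (vertical axis) against the log2 fold change of first-listed over second-listed reads (horizontal axis), for the 244 peaks of the histone lysine methylation genes (purple) and all 19703 peaks that were not distal intergenic (grey). The purple curve lies to the right of the grey one, with medians of 0.22 and 0.09 where the curves cross the dotted line.

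In the cumulative plot few peaks of these genes had values well below 0, and the curves come close at the high end. The lowest was −0.68 and the highest 1.30, in a table that runs from −3.94 to 3.96. Promoter peaks had a median of 0.18 and gene-body peaks of 0.24 in these genes, against 0.09 and 0.10 over all peaks. The peaks come from few genes in part. The 5 genes with most peaks (JARID2, SMYD3, JMJD1C, KDM4B and KMT2E) held 107 of the 244, with a median of 0.30, and the 137 peaks of all the others had 0.16.

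In the authors' deposited table no peak of these genes had an adjusted p under 0.05, as none of the 19703 did (0% called), and the smallest adjusted p was 0.649 for these genes and 0.0704 in the table. That table gave 13 of the 244 peaks an unadjusted p under 0.05 (5.33%), beside 5.2% of all 19703, so the share was that of the background. All 13 were higher in the first-listed group, where the background was 3.89% higher and 1.31% lower. By size, 5 peaks (2.05%) had a log2 fold change of at least 1, beside 1.51% of all, and 0 had −1 or less, beside 0.619%. At the lower size of 0.58, in either direction, there were 47 (19.3%), beside 15.7% of all. The peaks below the unadjusted threshold lay in 8 genes, 17% of the 47, beside 9.2% of all 9020 genes and 37.2% of the 183 genes with 10 or more peaks. They are therefore described and not called.

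The 13 peaks had 8 places in introns, 4 in promoters and 1 in an exon. The promoter of an inner SMYD3 transcript (chr1:246094180-246095251) held 95 and 40 reads, a log2 fold change of 1.30 (0.76 to 1.88), with p = 0.00231 in the authors' deposited table. KDM5B held 388 and 198 reads in intron 1 of 26 (chr1:202795966-202798081), 1.03 (0.78 to 1.28), with p = 0.00424 in the authors' deposited table. KMT2C held 43 and 20 reads in intron 1 of 58 (chr7:152386283-152386738), 1.16 (0.36 to 2.00), with p = 0.00896 in the authors' deposited table. The KMT2C peak is the shallowest of the 13 and has the widest interval. KDM2B held 94 and 46 reads in a promoter peak (chr12:121576874-121578496), 1.09 (0.56 to 1.63), and KDM2A 340 and 190 in one (chr11:67251985-67253409), 0.90 (0.64 to 1.16). The remaining 8 peaks were 3 of JMJD1C, 2 of JARID2 and 1 each of SMYD3, KDM5B and KDM6A. Over the 13 the log2 fold change ran from 0.70 to 1.30, and every interval lay above 0, also when reads were counted as pairs. The 13 were picked by p from the same values. Intervals that leave out 0 follow largely from that choice and add no support.

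**Figure D2:**
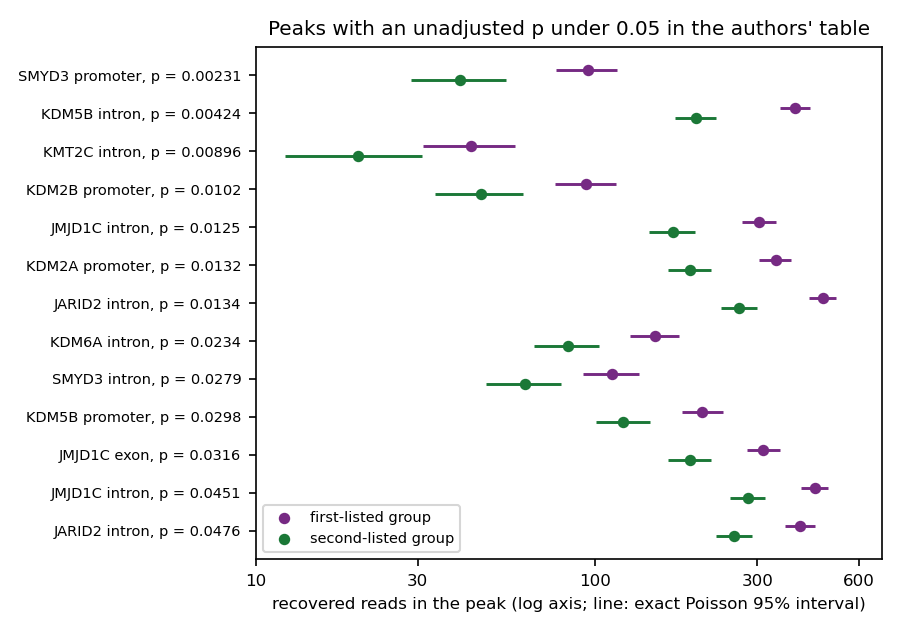
Recovered reads (horizontal log axis) in the 13 peaks for which the authors' deposited table has an unadjusted p under 0.05, for the first-listed (purple) and second-listed (green) column, with exact Poisson 95% intervals as lines. Reads ran from 43 to 468 in the first-listed and from 20 to 282 in the second-listed column, and the first-listed point lies to the right in all 13.

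In the plot of reads by peak, the intervals of both columns stand apart in every pair, which follows largely from the choice by p. They come closest at the shallow KMT2C peak. These intervals say how well reads were counted in 1 column. They hold no spread between libraries, which the authors' p-values may include.

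When reads were summed over the peaks of a gene, 35 of the 47 genes had a log2 ratio above 0 (74.5%) and 12 below, beside 61.3% above 0 among all 9020 genes. The median gene ratio was 0.18 (quartiles −0.01 and 0.32), against 0.09 for all genes. The interval lay above 0 in 22 of the 47 genes, a larger share than the 23% of all genes. It lay below 0 in 3 of the 47 (PCGF1, CBX8 and SETD3), where all genes had 8.97%. If both ends of each fragment had been counted, 16 of the 47 would remain above, where all genes had 14.2%, and 2 of the 47 below, where all genes had 4.41%. More reads narrow an interval, and these genes had a median of 3 peaks where all genes had 1. Among the genes with 10 or more peaks, the 6 listed here had a median of 0.35 and all 183 had 0.12. Scaled to equal reads in peaks, 27 of the 47 lay above 0 and 18 below, with a median of 0.07, while all genes had −0.02 and 46.3% above 0.

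**Figure D3:**
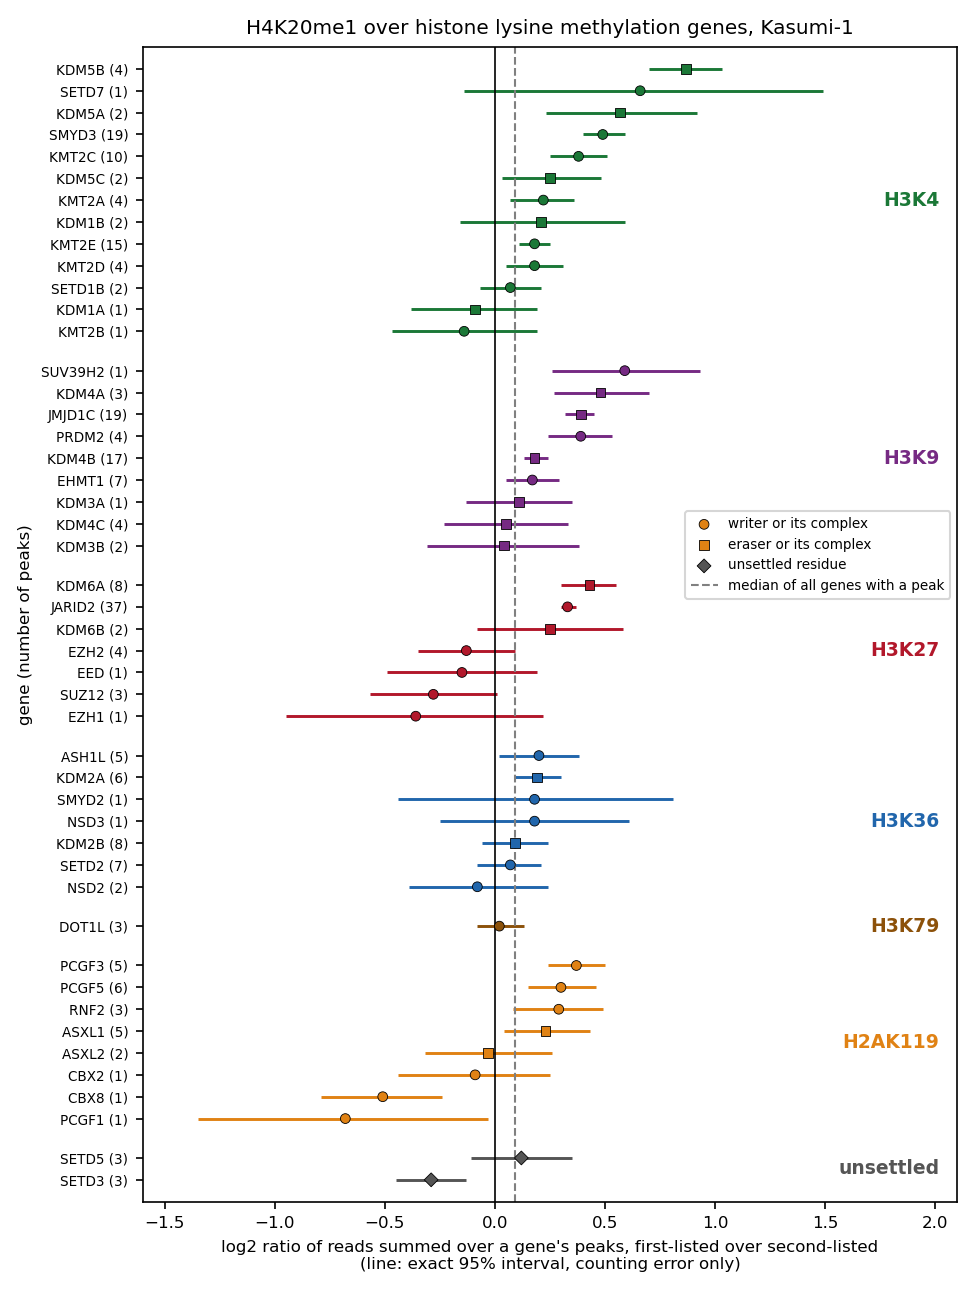
Log2 ratio of reads summed over the peaks of each of the 47 genes (horizontal axis; positive is higher in the first-listed group), by residue, with exact 95% intervals of counting error as lines, circles for writers, squares for erasers and diamonds for an unsettled residue. KDM5B is highest at 0.87 and PCGF1 lowest at −0.68, and the dashed line is the median of all genes with a peak, 0.09.

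The plot of gene ratios by residue shows where the genes sit. All 9 H3K9 genes with a peak lie above 0, H3K4 genes do so in 11 of 13, and the H3K27 and H2AK119 genes lie on both sides, where 61.3% of all genes lie above 0. With columns scaled to equal reads in peaks, 6 of the 9 H3K9 genes lay above 0, 2 below and 1 at 0 after rounding, and 10 of the 13 H3K4 genes above, where all genes had 46.3%. Writers and erasers overlapped. Of 39 writers, their subunits or relatives, 28 had a peak, with a median of 0.18 and 19 above 0. Of 18 erasers or their partners, 17 had one, with a median of 0.21 and 15 above 0.

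Of the 16 genes of H3K4 methylation, 13 had a peak, 67 peaks in all, and the median gene ratio was 0.22. KDM5B, an eraser of H3K4 trimethylation, held 795 and 454 reads over 4 peaks, 0.87 (0.70 to 1.03), the highest ratio of all 47 genes. Its promoter peak (chr1:202806202-202808250) held 207 and 121 reads, 0.83 (0.50 to 1.17). Its other peaks held 388 and 198 reads (1.03) and 133 and 92 (0.59) in intron 1, and 67 and 43 (0.70) in the untranslated region at the far end. KDM5B was the only gene among the 47 with 2 or more peaks in which every peak was at least 0.5 from 0 in 1 direction, and under equal reads in peaks its ratio was 0.75. Its relatives were also higher: KDM5A held 173 and 121 reads, 0.57 (0.23 to 0.92), and KDM5C 357 and 312, 0.25 (0.03 to 0.48). For the KDM5 enzymes together, grouped after their values were seen, the ratio was 0.64 (0.51 to 0.76). The KDM1 erasers, which work by amine oxidation, had intervals on both sides of 0, with KDM1A at 199 and 221 reads, −0.09 (−0.38 to 0.19), and KDM1B at 127 and 114, 0.21 (−0.16 to 0.59).

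Among the H3K4 writers, SMYD3, a SET and MYND domain methyltransferase whose histone activity is debated, had the most peaks. Its 19 peaks held 2246 and 1660 reads, 0.49 (0.40 to 0.59), and 17 of them were above 0. All of them lay at least 322.2 kb from the RefSeq start of this 758 kb gene, so the peaks annotated as promoters belong to inner starts. The 6 peaks short of the midpoint, 322.2 to 353.6 kb from the start, held 725 and 660 reads, 0.19 (0.04 to 0.35). The 13 past the midpoint held 1521 and 1000, 0.66 (0.55 to 0.78), with all 13 above 0. The lowest of the 19 was −0.23, from 171 and 208 reads in intron 5 of 11. KMT2C, which monomethylates H3K4 at enhancers, held 1105 and 881 reads over 10 peaks, 0.38 (0.25 to 0.51), with 9 above 0. At its 5′ promoter it held 258 and 206 reads, 0.38 (0.11 to 0.65), and in intron 1 it ran from −0.34 (51 and 67 reads) to 1.16.

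The remaining H3K4 writers, other than SETD7, lay nearer to the median of all genes. KMT2E, a relative of KMT2A without known methyltransferase activity, held 3260 and 2990 reads over 15 peaks, 0.18 (0.11 to 0.25). Its 6 peaks centred outside the RefSeq gene held 1034 and 1087 reads, −0.02 (−0.14 to 0.11). They include the promoter peak that spans the start and is centred just before it, with 465 and 460 reads, 0.08. The 6 peaks centred between the start and the midpoint held 1659 and 1404, 0.30 (0.19 to 0.40). The deepest of them, in intron 1 of 26, held 584 and 418 reads, 0.54 (0.36 to 0.72). KMT2A, the gene rearranged in many acute leukemias, held 804 and 720 reads, 0.22 (0.07 to 0.36), and KMT2D, the partner of KMT2C in function, 1000 and 920, 0.18 (0.05 to 0.31). SETD1B, a writer of H3K4 trimethylation at promoters, held 771 and 743 reads in exon 6 of 17 (chr12:121810385-121813255), 0.10 (−0.04 to 0.26), and its gene ratio was 0.07. KMT2B was the lowest of the residue, with 143 and 164 reads in its promoter peak and −0.14 (−0.47 to 0.19). SETD7, a monomethyltransferase, had 35 and 23 reads in 1 peak, too few to set its ratio of 0.66 (−0.14 to 1.49) apart from 0.

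For H3K9 methylation 9 of 14 genes had a peak, 58 peaks in all, with a median gene ratio of 0.18. Only 3 of the 7 writers had one, beside 6 of the 7 erasers. The writer SUV39H2, which trimethylates H3K9 in heterochromatin, had 1 peak, the promoter peak shown above with its sequence, and was the highest of the residue at 0.59. PRDM2, a PR domain methyltransferase, held 871 and 692 reads over 4 peaks, 0.39 (0.24 to 0.53), all 4 above 0. EHMT1, which dimethylates H3K9 together with EHMT2, held 1204 and 1114 reads over 7 peaks, 0.17 (0.05 to 0.29), with 5 above 0. EHMT2 itself had no peak. EHMT1 lies on chromosome 9 past 40 Mb, a stretch in which the median of all peaks was −0.14, while its 7 peaks had a median of 0.34.

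JMJD1C, a relative of the KDM3 demethylases and a reported coactivator of RUNX1-RUNX1T1, held 4669 and 3715 reads over 19 peaks, 0.39 (0.32 to 0.45). The peaks fell into stretches that differed. The 14 peaks at and downstream of the inner promoter printed above held 3848 and 2849 reads, 0.49 (0.42 to 0.56), all 14 above 0. The 5 peaks upstream of it held 821 and 866, −0.02 (−0.16 to 0.12), a division chosen after the values were seen. The promoter peak farther upstream (chr10:63464578-63466471) held 370 and 382 reads, 0.01 (−0.20 to 0.22). The highest was in intron 3 of 25 (chr10:63236342-63237646), with 304 and 169 reads, 0.92 (0.63 to 1.18), and p = 0.0125 in the authors' deposited table. Exon 5 of 26 (chr10:63217270-63218663) held 313 and 190 reads, 0.78 (0.51 to 1.04), and another peak of intron 3 (chr10:63240947-63242516) 443 and 282, 0.71 (0.49 to 0.93). This contrast rests on the nearest-gene rule: 11 further peaks upstream of the inner promoter lie inside JMJD1C but were given to MIR1296, JMJD1C-AS1 or REEP3, and they held 1493 and 1141 reads, 0.44 (0.33 to 0.56). With them, the 16 upstream peaks had 0.26 (0.18 to 0.35). Counted by host gene, JMJD1C had 30 peaks with 6128 and 4831 reads, 0.40 (0.35 to 0.45).

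The KDM4 erasers, which act on H3K9 and H3K36, spanned a range. KDM4A held 421 and 313 reads over 3 peaks, 0.48 (0.27 to 0.70). KDM4B held 5425 and 4968 reads over 17 peaks, 0.18 (0.13 to 0.24), with 15 above 0. Its deepest peak, at the promoter (chr19:4968627-4972113), held 765 and 728 reads, 0.13 (−0.02 to 0.28), and its highest, in intron 6 of 23, 202 and 134, 0.65 (0.33 to 0.98). The 12 peaks before its midpoint and the 5 past it had the same ratio, 0.18 in each, unlike the stretches of SMYD3. KDM4C was the lowest of the residue among genes with a peak of at least median signal, with 218 and 219 reads over 4 peaks and 0.05 (−0.23 to 0.33), and its peaks ran from −0.17 to 0.75. KDM3A and KDM3B, erasers of H3K9 mono- and dimethylation, had 0.11 and 0.04, with intervals on both sides of 0.

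**Figure D4:**
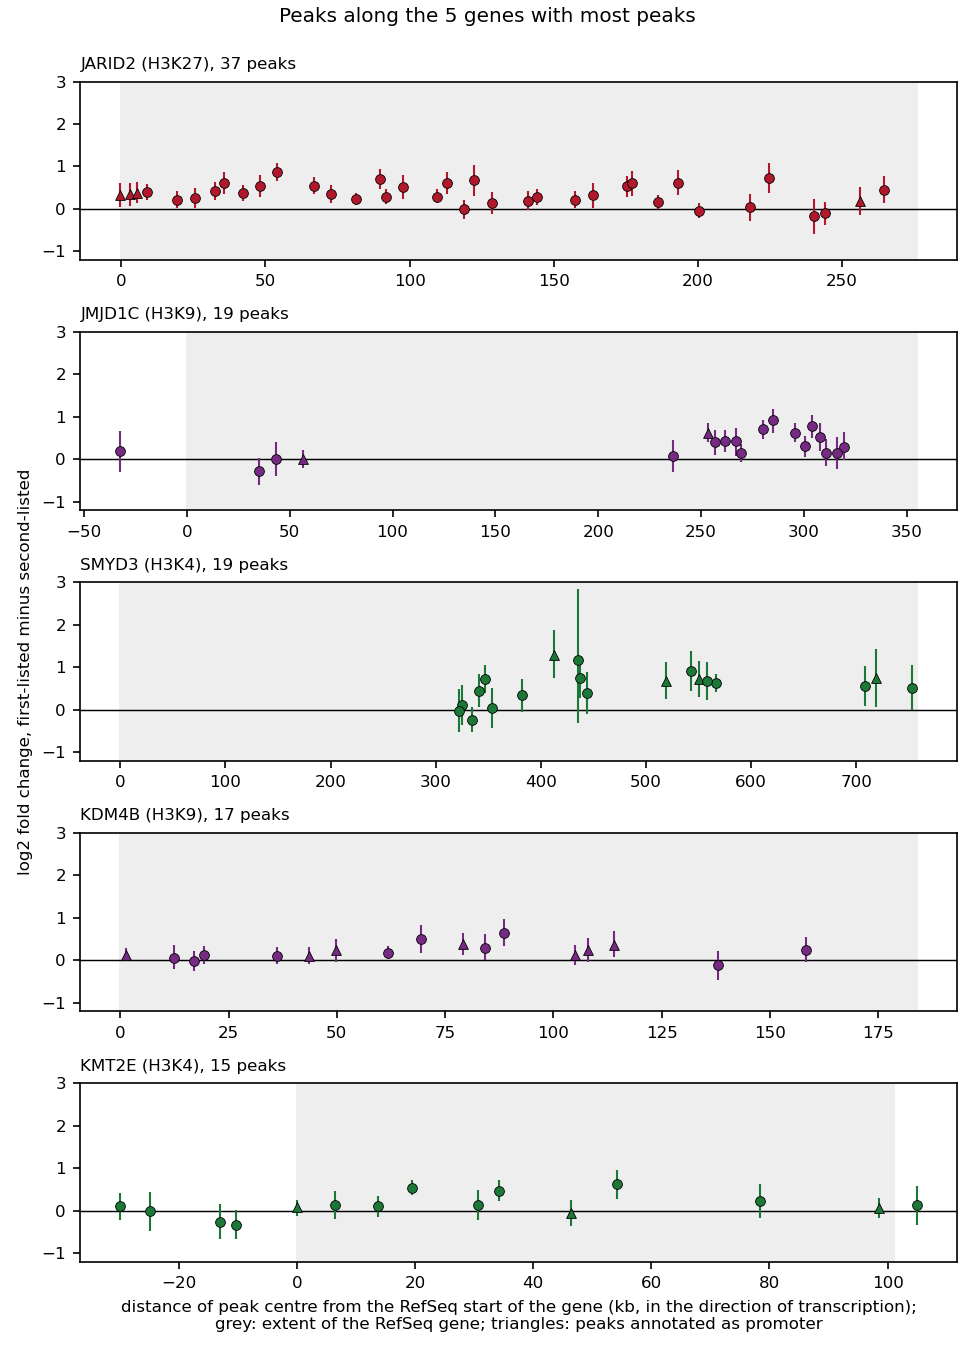
Log2 fold change of each peak (vertical axis; lines are exact 95% intervals of counting error) by distance of its centre from the RefSeq start in kb (horizontal axis, in the direction of transcription) for the 5 genes with most peaks; grey is the RefSeq gene and triangles are promoter peaks. JARID2 has 37 peaks with 33 above 0. The plotted peaks of JMJD1C and SMYD3 are higher past the midpoint of the gene (0.48 and 0.66) than before it (−0.06 and 0.19). The SMYD3 peaks before it all lie 322.2 to 353.6 kb from the start.

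In the plot of peaks along the genes with most peaks, the higher values of JARID2, SMYD3 and JMJD1C were spread over long runs. They did not come from 1 peak. In KMT2E the highest peaks (0.54, 0.47 and 0.62) stood apart, with peaks at 0.13 and −0.05 between them. In SMYD3 the high run is in the 3′ part, and in JMJD1C too as far as peaks given to it by the nearest gene go. In JARID2 the order is the other way, with 0.39 (0.34 to 0.43) over the 21 peaks before the midpoint and 0.23 (0.17 to 0.30) over the 15 past it.

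All 7 genes of H3K27 methylation had a peak, 56 peaks in all, and they split into higher and lower genes. The median gene ratio was −0.13, with 3 genes above 0 and 4 below, and its sign depended on which genes entered: it was 0.06 with peaks of at least median signal only and 0.25 without 3 chromosome stretches described further on. JARID2, an accessory subunit that brings PRC2 to chromatin, had the most peaks of the list, 37, the third highest number among 9020 genes. They covered 50.8 kb or 18.4% of the gene and held 13297 and 10969 reads, which is 262 and 216 reads per kb of peak, with a ratio of 0.33 (0.30 to 0.37) and 33 peaks above 0. The deepest (chr6:15325606-15329619, intron 1 of 17) held 936 and 824 reads, 0.24 (0.10 to 0.38). The highest (chr6:15299244-15300844, intron 1) held 468 and 266 reads, 0.87 (0.65 to 1.09), with p = 0.0134 in the authors' deposited table, and another of intron 1 (chr6:15335363-15336063) 402 and 257, 0.70 (0.47 to 0.93). The 4 peaks below 0 ran down to −0.17, from 93 and 109 reads in intron 5.

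The enzymes and core subunits of PRC2 did not share the JARID2 pattern. SUZ12, a scaffold subunit, held 177 and 223 reads over 3 peaks, −0.28 (−0.57 to 0.01). Its exon peak held 77 and 111 reads, −0.47 (−0.91 to −0.04), and its promoter peak 82 and 88, −0.04 (−0.50 to 0.41). EZH2, the main H3K27 methyltransferase, held 329 and 374 reads, −0.13 (−0.35 to 0.09), and at its promoter 90 and 129, −0.46 (−0.87 to −0.06). Of its 4 peaks 1 lies in the neighbouring CUL1, and by host gene EZH2 held 234 and 289 reads, −0.25 (−0.50 to 0.01). EED, the subunit that reads H3K27 trimethylation, held 137 and 158, −0.15 (−0.49 to 0.19), and EZH1, the enzyme of resting cells, 45 and 60, −0.36 (−0.95 to 0.22). All 4 were below 0, and together, grouped after their values were seen, they held 688 and 815 reads, −0.19 (−0.34 to −0.04), or −0.40 to 0.02 if reads were counted as pairs. SUZ12 and EZH1 lie on chromosome 17 past 25 Mb, where the median of all peaks was −0.18, and so the gene and its stretch of chromosome cannot be told apart there. EZH2 and EED lie elsewhere.

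Both erasers of H3K27 methylation were above 0. KDM6A, also known as UTX, held 1189 and 920 reads over 8 peaks, 0.43 (0.30 to 0.55), and all 8 were above 0. Its highest peak (chrX:44996267-44997642, intron 4 of 28) held 150 and 83 reads, 0.91 (0.51 to 1.32), with p = 0.0234 in the authors' deposited table. Its deepest, in intron 2, held 367 and 280, 0.45 (0.22 to 0.68), and its promoter peak 125 and 102, 0.35 (−0.04 to 0.74). KDM6B had 166 and 145 reads over 2 promoter peaks, 0.25 (−0.08 to 0.58).

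For H3K36 methylation 7 of 8 genes had a peak, 30 peaks in all, with a median gene ratio of 0.18 in a narrow range from −0.08 to 0.20. ASH1L, a writer of H3K36 dimethylation, was the highest, with 510 and 462 reads over 5 peaks and 0.20 (0.02 to 0.38). Its peak in intron 2 of 27 held 100 and 60 reads, 0.79 (0.32 to 1.28), and its promoter peak 184 and 179, 0.10 (−0.21 to 0.40). NSD2, another dimethyltransferase, was the lowest, with 83 and 92 reads at 1 inner promoter and 82 and 89 at the other, −0.08 (−0.39 to 0.24) in all. SETD2, which trimethylates H3K36, had 0.07 (−0.08 to 0.21) over 7 peaks, and NSD3 and SMYD2 had 0.18 each from 1 peak. The KDM2 erasers each had 1 peak that stood out from the rest of the gene. In KDM2A the inner promoter peak with 340 and 190 reads, 0.90, had p = 0.0132 in the authors' deposited table, while its other 5 peaks ran from −0.08 to 0.10, the deepest with 639 and 633 reads. The gene held 1647 and 1497 reads, 0.19 (0.09 to 0.30). KDM2B, which brings a form of PRC1 to CpG islands, had 94 and 46 reads in the promoter peak, 1.09, with p = 0.0102 in the authors' deposited table, but 5 of its 8 peaks were below 0, and the gene ratio was 0.09 (−0.06 to 0.24).

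DOT1L, the H3K79 methyltransferase, had nearly equal reads in both columns. Its peak in exon 8 of 28 (chr19:2197420-2200562) held 910 and 934 reads, 0.02 (−0.11 to 0.15), its deeper promoter peak 478 and 497, 0.01 (−0.18 to 0.18), and the other 142 and 136, 0.12 (−0.23 to 0.47). The gene held 1530 and 1567 reads, 240 and 245 per kb of peak, 0.02 (−0.08 to 0.13). The depth of DOT1L was thus near that of JARID2 per kb, and its interval ended below the ratio of JARID2. Scaled to equal reads in peaks, DOT1L was at −0.09.

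Of the 11 genes of H2AK119 ubiquitination and its removal, 8 had a peak, 24 peaks in all, with 4 genes above 0, 4 below and a median of 0.10. This median was −0.02 with promoter peaks within 1 kb only or with equal reads in peaks, 0.27 with peaks of at least median signal only and 0.30 without the 3 chromosome stretches. PCGF3, a subunit of a variant PRC1, was the highest, with 1076 and 866 reads over 5 peaks and 0.37 (0.24 to 0.50). Its deepest peak (chr4:720914-722535, an inner promoter) held 505 and 393 reads, 0.42 (0.23 to 0.61), and the highest, in intron 1, 177 and 128, 0.52 (0.19 to 0.86). PCGF5, its close relative, had 741 and 624 reads, 0.30 (0.15 to 0.46), and RNF2, the main ubiquitin ligase of PRC1, 443 and 378, 0.29 (0.08 to 0.49). PCGF1, the subunit that pairs with KDM2B, had 33 and 55 reads in 1 peak, −0.68 (−1.35 to −0.03). CBX8, a chromodomain subunit that reads H3K27 trimethylation, held 190 and 282 reads in a promoter peak (chr17:79794229-79797380), −0.51 (−0.79 to −0.24). Its neighbour CBX2 held 136 and 151, −0.09 (−0.44 to 0.25). ASXL1, a partner of the H2AK119 deubiquitinase, had 0.23 (0.04 to 0.43), and ASXL2 had −0.03 (−0.32 to 0.26). The 2 promoter peaks of ASXL1 belong to inner starts, 6.0 and 70.9 kb from its RefSeq start. In that order they held 201 and 137 reads, 0.61 (0.29 to 0.93), and 51 and 40, 0.41 (−0.22 to 1.04).

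SETD3, now known as an actin histidine methyltransferase, was lower in the first-listed group, with 577 and 734 reads over 3 peaks and −0.29 (−0.45 to −0.13). Most of this came from the promoter peak printed above, since the peak in intron 1 of 12 held 144 and 130 reads, 0.20 (−0.15 to 0.56), and that in intron 11 held 40 and 60, −0.53 (−1.14 to 0.07). SETD5, whose histone activity is disputed, held 314 and 301 reads, 0.12 (−0.11 to 0.35), with peaks at −0.21 (87 and 105 reads), 0.16 (116 and 108) and 0.39 (111 and 88).

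Position on the chromosome moved with some of the lower values. In 3 stretches named by an earlier analysis of this table (chromosome 2 up to 90 Mb, 9 past 40 Mb and 17 past 25 Mb) the median of all peaks was −0.16, −0.14 and −0.18, against 0.12 elsewhere. What these stretches were chosen by is not stated, so their medians are no independent measure of position. All 6 peaks of CBX2, CBX8, EZH1 and SUZ12 lie on the chromosome 17 stretch and were below 0, with a median of −0.36. PCGF1, ASXL2 and KDM3A lie on that of chromosome 2, where their 4 peaks had a median of −0.02. Outside the stretches 227 peaks of the listed genes had a median of 0.23. The part of position in these values was not tested.

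A further 48 genes of the same pathways, partners and readers that the list leaves out, were set beside it. A peak was found at 33 of them, 108 peaks in all, where 37.7% of the protein-coding genes of RefSeq had one. Their median gene ratio was 0.11. Of the 33 genes 22 were above 0 and 11 below, beside 61.3% above 0 among all 9020 genes. The authors' deposited table gave an unadjusted p under 0.05 to 9 higher peaks and 1 lower one of the 108. Over all 19703 peaks 3.89% were such higher peaks and 1.31% such lower ones. Those of the 108 came from few genes, with 3 in RYBP, 2 each in SETMAR and AFF1, and 1 each in PHC2, KMT5B and PHF2. They are therefore no measure of the list as a whole. An adjusted p under 0.05 was given to 0 of the 108. RYBP, a subunit of variant PRC1, held 1562 and 1038 reads, 0.65 (0.53 to 0.76), and KMT5B, which extends H4K20me1 to higher methylation, 790 and 530, 0.63 (0.47 to 0.79). The PRC2 subunit RBBP7 held 71 and 117, −0.66 (−1.11 to −0.23). KMT5A, the gene of the knocked-out enzyme, held 489 and 422 reads, 0.27 (0.08 to 0.46), over 3 peaks of the mark, which is no measure of its loss. As a check of the labelled line, 7 of 10 marker genes of Kasumi-1 had a peak (RUNX1, RUNX1T1, CD34, KIT, SPI1, LYL1 and LMO2) and CD33, MPO and CEBPA had none. A peak was also found at 1 of 4 lymphoid, 2 of 3 liver, 2 of 4 epithelial and 2 of 3 neuronal markers, and a peak of this mark is no measure of expression.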

How the data were processed

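The submitters' processing notes name Bowtie2, cutadapt, DESeq and build hg38. The sources used here do not give their versions, the peak caller or the libraries behind each column. The authors' deposited table holds log2 values of scaled reads for each peak, in 1 column per group, with the log2 fold change. It also holds the authors' p-values, unadjusted and adjusted. The headers only number the columns, and what each holds was read from the values: the fold change is the difference of both group columns within 0.01. Peak coordinates and classes are those of the authors' table. Promoter coordinates are those of RefSeq on GRCh38.p14.

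Low log2 values (1.5 to 5.5; 5676 first-listed, 5851 second-listed) all lay on whole reads within 0.0051, with a constant of 0 and −0.057 per column, which gave the reads of each peak. For deep peaks the rounding of the log2 values leaves an error of up to 0.347%. Read numbers of 2 to 7 were even in 75.5% and 86.9% of cases, those of 32 to 63 in 51.2% in the first-listed column, so it is not settled whether reads or both reads of a pair were counted. Gene ratios used reads summed over a gene's peaks. No spread between libraries can be had from 1 column per group, so p-values are the authors' own.

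The genes and lists were chosen with earlier results of these data known. Peak values are given for genes with an unadjusted p under 0.05, the highest and lowest of each residue among genes with a peak of at least median signal, the 5 genes with most peaks, the 5 with the deepest peak, genes with every peak at least 0.5 the same way, and both genes without a settled residue. Values of other genes, and families, were added after they were seen. A gene of the further pathway list is not reported here. Alternatives covered peak-to-gene assignment, signal, promoter reach (1 kb), scaling, chromosome stretches and thresholds. Python 3.11.15, numpy 2.4.6, pandas 2.3.3, scipy 1.17.1 and matplotlib 3.10.9 were used.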

Additional observations from a re-analysis of the deposited data

Results flagged for a closer look

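A signal was present in peaks that the counts above leave out: 6 distal intergenic peaks have a listed gene as their nearest. The peak nearest to CBX7, at a distance of 17.2 kb, held 80 (first-listed) and 77 (second-listed) reads, a log2 ratio of 0.11 (−0.36 to 0.58), and CBX7 has no other peak. Those nearest to KDM2A held 54 and 60 reads (−0.10) and 34 and 22 (0.68). The ones nearest to KDM4B, PRDM2 and SETD3 held 140 and 122 (0.26), 35 and 32 (0.19), and 67 and 88 (−0.34).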

How the results depend on the processing

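Of 91 recomputed values 5 changed sign, and 7 others moved by more than their spread or, for counts, by over 1.5 times. The spread of a residue median is that of its genes and is wide, so several medians within it also moved by over 1.5 times. Without the 3 chromosome stretches, the H3K9 median was 0.39 in place of 0.18 and the H2AK119 median 0.30 in place of 0.10. At median signal, the H2AK119, H3K9 and H3K36 medians were 0.27, 0.29 and 0.10 (H3K36 0.18 before). With equal reads in peaks, the H3K4 median was 0.10 in place of 0.22, the H3K9 and H3K36 medians and that over all genes were 0.07 each in place of 0.18, the H3K27 median was −0.24, and that of SETD3 and SETD5 −0.20 in place of −0.08. Limited to peaks of at least median signal, the count of peaks whose log2 fold change was 1 or more in size was 1 in place of 5 and the H3K27 gene median 0.06 in place of −0.13. That median was 0.25 without the 3 chromosome stretches. With promoter peaks within 1 kb only, the count was 3 and the H2AK119 median −0.02 in place of 0.10. With columns scaled to equal reads in peaks, the count was 3, the H2AK119 median −0.02, the H3K79 value −0.09 in place of 0.02 and the median over peaks 0.11 in place of 0.22. At a threshold of 0.58 the count was 47 (19.3%), beside 15.7% of all 19703 peaks. Without the 5 genes with most peaks, an alternative chosen after seeing the data, the median over peaks was 0.16 and the authors' deposited table had 6 peaks in place of 13 at an unadjusted p under 0.05. The causes were not tested, other than fewer genes or peaks entering by construction. No paired analysis was possible because the table has 1 value column per group. For the same reason leaving out replicates and a DESeq2 test were not run. Depth limits genes with 1 shallow peak, such as SETD7, EZH1 and SMYD2, whose intervals span 0.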

Other observations

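The nearest gene is not always the gene in which a peak lies. Of 156 exon and intron peaks of the listed genes, 148 lay in that gene, 3 in another and 5 named no host gene number. The 3 were a peak of EZH2 in CUL1 (0.22), of KMT2E in SRPK2 (0.13) and of JMJD1C in REEP3 (0.19). A further 20 peaks lie inside a listed gene and were given to a neighbour. The 4 in DOT1L, given to AP3D1, ran from −0.16 to 0.17, the deepest with 639 and 591 reads, so that DOT1L was near 0 there too. SETD1A, which has no peak by the nearest gene, has 1 by host gene, with 98 and 77 reads and 0.40. The peak in JARID2 given to DTNBP1 held 254 and 196 reads, 0.44. Of those in JMJD1C, the authors' deposited table gave 2 an unadjusted p under 0.05, with 156 and 84 reads (0.95, p = 0.0178) and 131 and 77 (0.82, p = 0.0425). Both lie upstream of the inner promoter, where the 5 peaks given to JMJD1C itself were near 0.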
